A study of Mus musculus with 3 samples.

Results

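The 9 genes described here encode the inhibin and activin subunits (Inha, Inhba, Inhbb), the activin-binding proteins follistatin and follistatin-like 3 (Fst, Fstl3), the activin receptors of type I and type II (Acvr1b, Acvr2a, Acvr2b) and betaglycan (Tgfbr3). They were chosen by name for their place in one signalling pathway, and all 9 were found among 24225 genes, through 11 of 34535 RefSeq isoforms. Levels come from messenger RNA sequencing of granulosa cells, the somatic cells that line the ovarian follicle, taken from wild-type C57BL/6 females aged 21 to 28 days. Every mouse had received 4 IU of equine chorionic gonadotropin (eCG), which drives follicle growth. The 0 h library came from mice with no further hormone, and the 4 h and 12 h libraries from mice then given 5 IU of human chorionic gonadotropin (hCG), a ligand of the luteinizing hormone receptor that starts ovulation. Cells were released by puncturing follicles of whole ovaries, and RNA of 3 mice was used at each time, but each time has 1 library. No test was therefore possible, and every difference below is one between libraries.

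Inhibins are dimers of the alpha subunit, made from Inha, with a beta subunit, made from Inhba (beta A) or Inhbb (beta B), whereas activins are dimers of beta subunits alone. Activin binds the type II receptors Acvr2a and Acvr2b, which recruit the type I receptor Acvr1b and pass the signal to the transcription factors SMAD2 and SMAD3. Inhibin, held by betaglycan, occupies type II receptors without signalling, and follistatin binds activin and keeps it from its receptors. Granulosa cells are the main ovarian source of inhibin, which restrains secretion of follicle-stimulating hormone by the pituitary.

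Values are FPKM, fragment counts scaled to transcript length and to the number of mapped fragments, so levels of different genes can be compared within a library. Ranges in parentheses are the bounds deposited with each value, which lie 2 standard deviations of the estimate either side of it. They describe the estimate within 1 library and not the spread between mice. Depth, estimated from the steps between low FPKM values, was about 13300000 (0 h), 11900000 (4 h) and 11600000 (12 h) fragments. These depths, with a length taken off each transcript, were those that brought the most low values within 0.1 of a whole fragment. The share so reached was 69.9% to 71.6%, where 20% is the chance share for a depth not chosen this way. It is thus no independent check of the depths. A gene is called higher or lower where its fold reached 2 on the log2(FPKM + 1) scale and 1 or both of the 2 libraries reached 1 FPKM, which is a rule of size; that scale understates changes of low genes. In these bulk samples fewer cells of a type and less RNA per cell cannot be told apart.

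The granulosa label was checked against 7 markers, all of which were present in each library. Their summed level was 5149, 2156 and 2871 FPKM at 0, 4 and 12 h, with Foxl2, a transcription factor of granulosa cells, at 149, 44.3 and 102 FPKM and the gap junction gene Gja1 at 3048, 1401 and 1585 FPKM. Of these 7 markers 5 were lower at 4 h than at 0 h. Other cells were represented too. Summed levels at 0, 4 and 12 h were 106, 85.7 and 151 FPKM for 6 oocyte markers, 178, 496 and 338 FPKM for 5 stroma markers, 124, 135 and 80.7 FPKM for 4 theca markers and 1739, 1091 and 1110 FPKM for 4 erythroid markers. The sums were 112, 170 and 167 FPKM for 4 smooth muscle markers, 55.2, 85.2 and 90.3 FPKM for 5 leukocyte markers, 32.1, 87.3 and 51.4 FPKM for 4 surface epithelium markers, 15.7, 37.4 and 14.9 FPKM for 6 endothelial markers and 1.59, 23.4 and 3.55 FPKM for 4 neutrophil markers. The markers listed at 0 were S100a9, Camp and Ngp at 0 h and Ngp at 4 h and 12 h, all of them neutrophil genes.

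**Figure D1:**
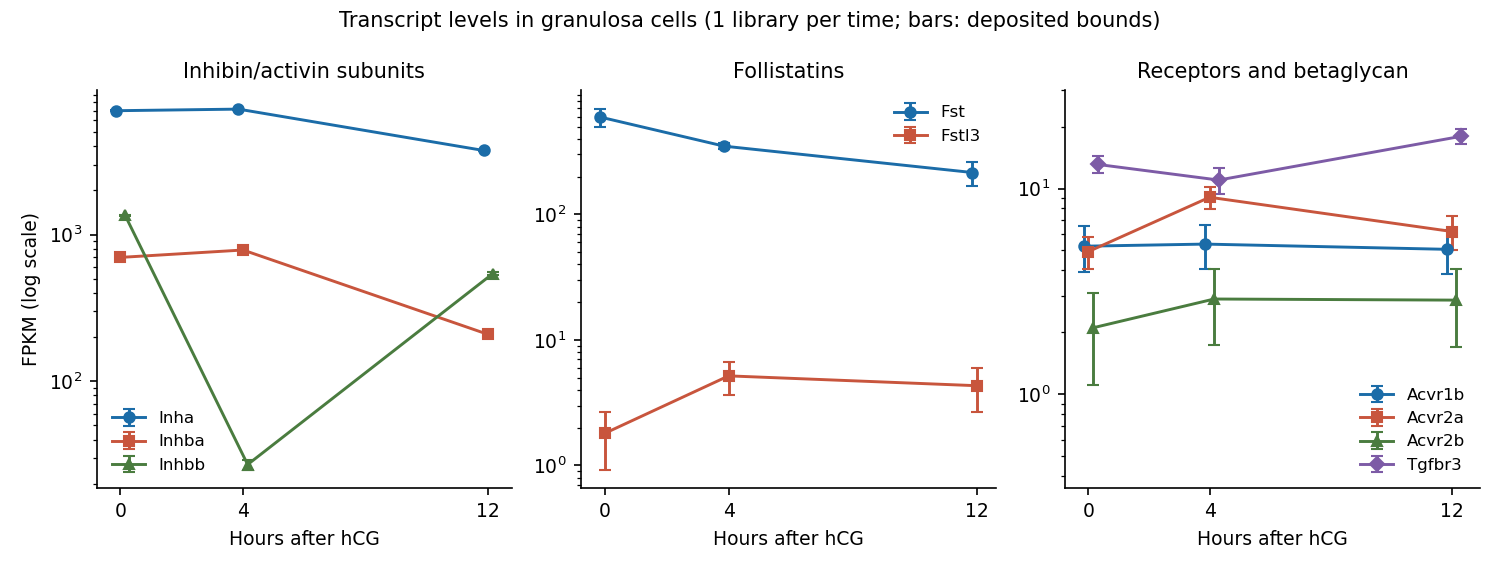
Levels of the 9 genes in FPKM (log axis) against hours after hCG, 1 library per time, with the deposited bounds as bars. Inhbb dipped to 27.0 FPKM at 4 h between 1354 FPKM at 0 h and 541.9 FPKM at 12 h, while Inha stayed between 3742 and 7163 FPKM and the receptors between 2.102 and 17.95 FPKM.

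The subunit genes followed different courses. Inha, on chromosome 1 at 75507077 to 75510366 in the GRCm38.p6 assembly, was at 6986 FPKM (6924 to 7048) at 0 h, 7163 FPKM (7100 to 7226) at 4 h and 3742 FPKM (3696 to 3788) at 12 h. About 118468, 108681 and 55341 fragments lay behind these values. The 4 h and 0 h levels were thus close, with a log2 fold of 0.04, and the 12 h level was the low one, with a log2 fold of -0.94 against 4 h and -0.90 against 0 h, just inside the 2-fold limit.

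Inhba, on chromosome 13 at 16004256 to 16031609, was at 698.6 FPKM (679.4 to 717.9) at 0 h, 784.5 FPKM (764.1 to 804.9) at 4 h and 208.4 FPKM (198 to 218.8) at 12 h. Like Inha it was near its 0 h level at 4 h (log2 fold 0.17) and lowest at 12 h. By the 2-fold rule it was lower at 12 h than at 4 h (log2 fold -1.91) and than at 0 h (-1.74), with bounds that lay apart in both comparisons. The transcribed pseudogene B230303A05Rik, which has no value here, overlaps 19168 bases of the Inhba locus, introns included. Whether it shares exons with the measured transcript was not examined, and no source used here states strandedness. Its part in the Inhba values was not tested.

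Inhbb, on chromosome 1 at 119415463 to 119422248, had the widest swing of the 9 genes. It stood at 1354 FPKM (1339 to 1369) at 0 h, 27.0 FPKM (24.9 to 29.2) at 4 h and 541.9 FPKM (532.2 to 551.7) at 12 h. The 4 h level was 50.1-fold below that of 0 h, and the 12 h level was 20-fold above that of 4 h and 2.50-fold below that of 0 h. On the log2 scale the differences were -5.59 between 4 h and 0 h, 4.28 between 12 h and 4 h and -1.32 between 12 h and 0 h. About 1305 fragments remained at 4 h, so the low value was well counted. Ranked by log2 fold, Inhbb stood 30 from the lowest of 13240 genes between 4 h and 0 h, and 37 from the highest of 13242 genes between 12 h and 4 h. Of the 7 granulosa markers 6 also had their lowest value at 4 h, among them Cyp19a1, which encodes aromatase, at 198, 30 and 105 FPKM, and the follicle-stimulating hormone receptor gene Fshr at 133, 15.5 and 32.1 FPKM. The exception was Amh, which encodes anti-Müllerian hormone, at 252, 351 and 406 FPKM. The part of cell composition in the Inhbb values was not tested.

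Because of the Inhbb swing, the 250 bases before its annotated start are shown from RefSeq (GRCm38.p6, chr1:119422249-119422498, minus strand), with matches to 6 motifs in capitals.
Inhbb promoter: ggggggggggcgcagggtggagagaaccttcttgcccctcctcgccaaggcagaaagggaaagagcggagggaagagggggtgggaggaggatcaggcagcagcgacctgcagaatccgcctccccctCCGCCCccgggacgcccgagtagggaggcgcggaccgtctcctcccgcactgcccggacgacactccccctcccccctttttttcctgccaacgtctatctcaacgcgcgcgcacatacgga
Searched on both strands, this stretch held 1 match to the GC box GGGCGG. It held 0 matches to the cyclic AMP response element TGACGTCA, its short form TGACG (which is part of the full element), the NR5A site AAGGTCA, the AP-1 site TGANTCA and the SMAD box GTCTAGAC. Among 32851 RefSeq windows of the same length, 32.7% held the GC box, 1.55% the full cyclic AMP response element, 17.8% its short form, 4.08% the NR5A site, 6.75% the AP-1 site and 0.167% the SMAD box. A short form was searched for the cyclic AMP response element only. A match is a description of letters and not of binding. The windows listed for Inha and Inhba lie at start sites offset by 532 and -2624 bases (genome coordinate of the window's start site minus that of the transcript) from the measured transcripts, and are not shown.

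Subunit ratios were taken within each library and so do not depend on how libraries are scaled. Inha was 10 times (9.65 to 10.4) the level of Inhba at 0 h, 9.13 times (8.82 to 9.46) at 4 h and 18.0 times (16.9 to 19.1) at 12 h. Over Inhbb it was 5.16 times (5.06 to 5.26) at 0 h, 265 times (243 to 290) at 4 h and 6.90 times (6.70 to 7.12) at 12 h. The alpha transcript was thus in excess of either beta transcript at each time, and its excess over Inhbb was widest at 4 h.

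Among the beta subunits Inhbb was the more abundant at 0 h and 12 h and Inhba at 4 h. The ratio of Inhba to Inhbb was 0.516 (0.496 to 0.536) at 0 h, 29 (26.2 to 32.3) at 4 h and 0.385 (0.359 to 0.411) at 12 h. Inhba made up 34.0% of the summed beta subunit FPKM at 0 h, 96.7% at 4 h and 27.8% at 12 h, and Inhbb the rest. The sum itself was 2053 FPKM at 0 h, 811.5 FPKM at 4 h and 750.3 FPKM at 12 h. On the deposited scale the 4 h and 12 h libraries thus held similar amounts of beta transcript, of opposite makeup. Unlike the ratios, this comparison of sums depends on how libraries are scaled. Inha over that sum was 3.40 (3.33 to 3.48) at 0 h, 8.83 (8.53 to 9.14) at 4 h and 4.99 (4.83 to 5.15) at 12 h. These are transcript ratios, and subunit proteins and assembled dimers were not measured.

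**Figure D2:**
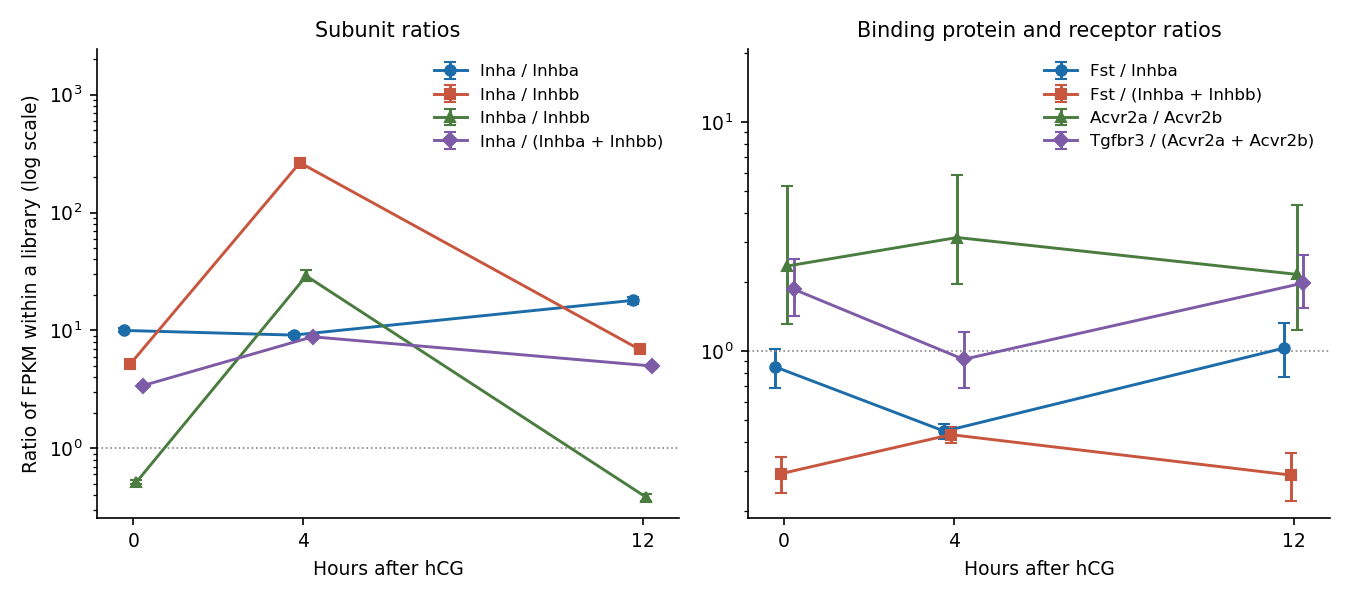
Ratios of FPKM within each library (log axes) against hours after hCG; bars run from the lowest numerator bound over the highest denominator bound to the reverse. Inhba / Inhbb stood at 29 at 4 h against 0.516 at 0 h and 0.385 at 12 h, and Tgfbr3 over the type II receptors at 0.919 at 4 h against 1.86 at 0 h and 1.98 at 12 h.

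Follistatin transcripts were lower at each later time. Fst, on chromosome 13 at 114452262 to 114458989, was at 596.6 FPKM (496.8 to 696.3) at 0 h, 349.5 FPKM (330.4 to 368.6) at 4 h and 215.5 FPKM (168.2 to 262.9) at 12 h, summed over 3 isoforms. The log2 fold was -0.77 between 4 h and 0 h and -0.70 between 12 h and 4 h, each within 2-fold, and -1.46 between 12 h and 0 h, past it. After scaling to the mean FPKM sum the 4 h value also passed the rule (log2 fold -1.08). The long noncoding RNA gene Gm41074, which has no value here, overlaps 2486 bases of the Fst locus. As with Inhba, overlap of exons was not examined, and the part of that gene in the Fst values was not tested.

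The transcripts of the 3 Fst isoforms are 1851 (NM_001301373), 1113 (NM_008046) and 2833 (NM_001301375) bases long. They differ outside the coding sequence too, in parts that are not shown. Their coding sequences differ in 2 places, given here from GENCODE M21 transcripts matched to the RefSeq accessions (GRCm38, minus strand of chromosome 13, introns left out). The first is the junction of exon 4 and exon 5, within chr13:114454478-114455150, where capitals mark 3 bases that NM_008046 lacks.
NM_001301373: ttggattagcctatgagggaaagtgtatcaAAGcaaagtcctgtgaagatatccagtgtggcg
NM_008046: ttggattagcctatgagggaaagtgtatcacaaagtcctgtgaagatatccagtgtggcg
The second is what follows exon 5, where capitals mark the coding part of exon 6 with its stop codon in the long form (chr13:114453423-114454309) and the stop codon in the short form (chr13:114453804-114454309).
NM_001301373: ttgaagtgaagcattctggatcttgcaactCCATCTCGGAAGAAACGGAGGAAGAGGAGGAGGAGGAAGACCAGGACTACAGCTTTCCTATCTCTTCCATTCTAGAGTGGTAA
NM_001301375: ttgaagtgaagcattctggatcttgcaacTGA
The reading frames encode 344 residues in NM_001301373, 343 in NM_008046 and 317 in NM_001301375. The long form carries an acidic C-terminal tail and is the circulating follistatin, while the short form binds heparan sulfate proteoglycans at the cell surface.

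NM_001301373 held most of the Fst signal, at 464.2 FPKM (404.8 to 523.7) at 0 h, 231.6 FPKM (216.5 to 246.7) at 4 h and 158.4 FPKM (123 to 193.8) at 12 h. The short form NM_001301375 was at 93.35 FPKM (74.49 to 112.2), 59.81 FPKM (49.67 to 69.95) and 42.20 FPKM (36.76 to 47.63) at the same times. NM_008046 was at 38.97 FPKM (0 to 116.8) at 0 h, 58.11 FPKM (52.30 to 63.92) at 4 h and 14.95 FPKM (0 to 45.93) at 12 h. Its lower bound of 0 at 0 h and 12 h means that its presence there is not resolved from NM_001301373.

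The split between the long forms is therefore uncertain, so their sum is also given. Together the long forms were at 503.2 FPKM (405.2 to 601.2) at 0 h, 289.7 FPKM (273.5 to 305.9) at 4 h and 173.3 FPKM (126.3 to 220.4) at 12 h. These bounds take the forms as independent and span more FPKM than those of NM_001301373 alone at each time. The short form made up 15.6%, 17.1% and 19.6% of Fst at 0, 4 and 12 h. Long over short forms was 5.39 (3.61 to 8.07), 4.84 (3.91 to 6.16) and 4.11 (2.65 to 5.99), ranges that overlap at all 3 times.

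**Figure D3:**
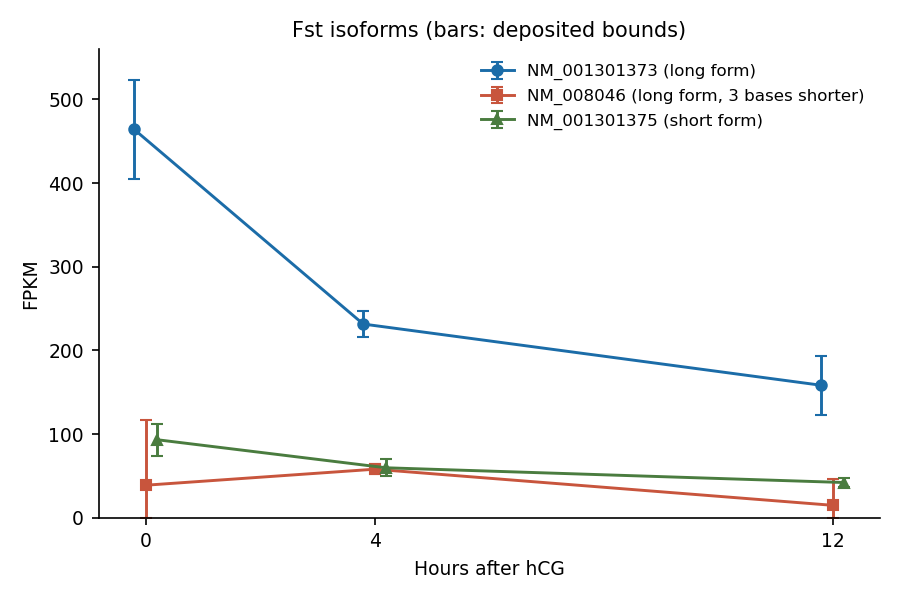
FPKM of the 3 Fst isoforms against hours after hCG, with deposited bounds as bars. NM_001301373 lay above the other isoforms at each time, at 464.2, 231.6 and 158.4 FPKM, and NM_008046 had a lower bound of 0 at 0 h and 12 h.

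Set against its ligand subunits, Fst was 0.854 times (0.692 to 1.02) the level of Inhba at 0 h, 0.446 times (0.411 to 0.482) at 4 h and 1.03 times (0.769 to 1.33) at 12 h. Over the beta subunit sum it was 0.291 (0.239 to 0.343), 0.431 (0.397 to 0.466) and 0.287 (0.220 to 0.357). The 4 h library was thus the low one against Inhba alone and the high one against both beta subunits.

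Fstl3, a secreted relative of follistatin on chromosome 10 at 79777274 to 79782630, was at 1.8 FPKM (0.924 to 2.68) at 0 h, 5.17 FPKM (3.62 to 6.73) at 4 h and 4.32 FPKM (2.68 to 5.96) at 12 h, from about 42, 108 and 88 fragments. It was higher at 4 h than at 0 h by the 2-fold rule (log2 fold 1.14), while the log2 fold of 0.93 between 12 h and 0 h did not reach it (1.01 after scaling to the mean FPKM sum). The 4 h call ended with a pseudocount of 5 FPKM (log2 fold 0.58), after scaling to the mean FPKM sum (0.90) and after scaling to the mean protein-coding sum (0.97). Fst exceeded Fstl3 331-fold (186 to 754) at 0 h, 67.6-fold (49.1 to 102) at 4 h and 49.9-fold (28.2 to 98.1) at 12 h. The marker sums of stroma, surface epithelium, smooth muscle and neutrophils, given above, were likewise lowest at 0 h and highest at 4 h. Single markers differed: all 4 surface epithelium markers were highest at 4 h, but only 2 of 5 stroma, 1 of 4 smooth muscle and 2 of 4 neutrophil markers were. The stroma sum followed Mgp, at 70.9, 371 and 191 FPKM, and the smooth muscle sum Tagln, at 45.0, 101 and 79.8 FPKM. Of the smooth muscle markers 3 were highest at 12 h. The part of these cells in the Fstl3 values was not tested. Prss57, which overlaps 1157 bases of the Fstl3 locus, was listed at 0 at all times.

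Receptor and betaglycan transcripts were less abundant than each of the subunit transcripts at every time, the nearest pair being Tgfbr3 at 11.0 FPKM and Inhbb at 27.0 FPKM at 4 h. None of the 4 passed the 2-fold rule in any comparison on the deposited scale. The type I receptor gene Acvr1b, on chromosome 15 at 101174072 to 101213684, was at 5.24 FPKM (3.92 to 6.57) at 0 h, 5.37 FPKM (4.08 to 6.66) at 4 h and 5.06 FPKM (3.82 to 6.31) at 12 h. These bounds overlapped throughout.

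Acvr2a, a type II receptor gene on chromosome 2 at 48814109 to 48903264, was at 4.94 FPKM (4.06 to 5.82) at 0 h, 9.07 FPKM (7.99 to 10.2) at 4 h and 6.18 FPKM (5.02 to 7.35) at 12 h. Its 4 h level was the high one, with bounds apart from those of the other libraries (log2 fold 0.76 against 0 h). Orc4, at 25.3, 24.5 and 20 FPKM, overlaps 441 bases of the locus. Acvr2b, the other type II receptor gene, on chromosome 9 at 119401583 to 119442148, was at 2.102 FPKM (1.10 to 3.10), 2.90 FPKM (1.73 to 4.08) and 2.87 FPKM (1.69 to 4.04) at 0, 4 and 12 h, from about 53, 65 and 63 fragments. A difference between times was not detectable at this depth. Acvr2a over Acvr2b was 2.35 (1.31 to 5.28), 3.13 (1.96 to 5.88) and 2.16 (1.24 to 4.35).

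Tgfbr3, the betaglycan gene on chromosome 5 at 107106567 to 107289629, was the most abundant of the 4 at each time, at 13.1 FPKM (11.9 to 14.3) at 0 h, 11.0 FPKM (9.40 to 12.6) at 4 h and 17.95 FPKM (16.5 to 19.4) at 12 h. Its 12 h level lay above the others with bounds apart (log2 fold 0.66 against 4 h and 0.43 against 0 h); after scaling to the mean FPKM sum the difference from 4 h passed the rule (1.02). Betaglycan over the summed type II receptors was 1.86 (1.42 to 2.51) at 0 h, 0.919 (0.692 to 1.21) at 4 h and 1.98 (1.54 to 2.62) at 12 h. The 4 h ratio was the low one, and its range did not overlap those of 0 h and 12 h. The pseudogene Gm8145, which has no value here, overlaps 831 bases of the Tgfbr3 locus.

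In order of level, the 0 h library ran Inha, Inhbb, Inhba, Fst, Tgfbr3, Acvr1b, Acvr2a, Acvr2b and Fstl3. Neighbours whose bounds overlapped there were Inhba with Fst, Acvr1b with Acvr2a and Acvr2b with Fstl3. At 4 h the order was Inha, Inhba, Fst, Inhbb, Tgfbr3, Acvr2a, Acvr1b, Fstl3 and Acvr2b, with overlapping bounds between Tgfbr3 and Acvr2a, Acvr1b and Fstl3, and Fstl3 and Acvr2b. At 12 h it was Inha, Inhbb, Fst, Inhba, Tgfbr3, Acvr2a, Acvr1b, Fstl3 and Acvr2b, with overlapping bounds between Fst and Inhba and from each to the next among Acvr2a, Acvr1b, Fstl3 and Acvr2b. Each of the 9 genes had at least 1 FPKM in all libraries.

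Counted by the 2-fold rule, 1 of the 9 genes was higher at 4 h than at 0 h (Fstl3), where 10.2% of 13240 genes were higher, and 1 was lower (Inhbb), where 7.03% were lower (17.3% in either direction). Between 12 h and 4 h 1 was higher (Inhbb) against 4.83% of 13242 genes, and 1 was lower (Inhba) against 7.88% (12.7% in either direction). Between 12 h and 0 h 0 of 9 were higher against 3.16% of 13026 genes, and 3 were lower (Inhba, Inhbb and Fst) against 2.55% (5.70% in either direction). The median log2 fold of the 9 genes was 0.04, -0.21 and -0.04 in these comparisons, beside -0.01, 0.01 and -0.02 over all genes. The comparisons share libraries and are not independent.

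The 2-fold split over all genes depends on which scaling is used. On the deposited scale 59.3% of genes past the rule were higher at 4 h than at 0 h. After scaling each library to the mean FPKM sum 36.7% were, and the median of all genes moved to -0.29. Between 12 h and 4 h the shares were 38.0% and 70.6%, and the median moved to 0.37. The small 4 h differences of Inha and Inhba from 0 h, 0.04 and 0.17, became -0.27 and -0.14 on that scale, in each case above the median of all genes. Inhbb was at -5.89 between 4 h and 0 h and at 4.66 between 12 h and 4 h on it. Scaling by the median of gene ratios between libraries left the split nearly as deposited. The shares higher were then 58.4% (4 h against 0 h) and 41.4% (12 h against 4 h), with medians of -0.02 and 0.04. After scaling to the mean protein-coding sum the shares were 42.5% and 62.0%, with medians of -0.21 and 0.27.

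**Figure D4:**
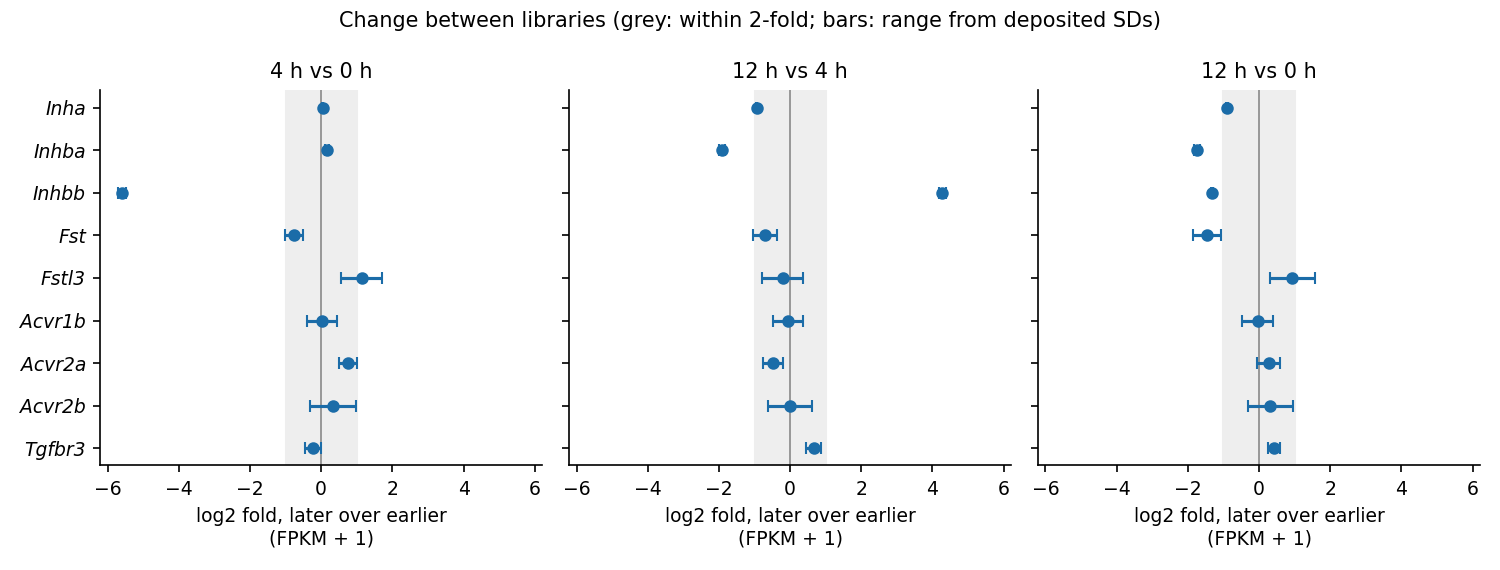
log2 folds (FPKM + 1, later over earlier library) of the 9 genes in the 3 comparisons; bars span 2 standard deviations of the deposited estimates and grey marks less than 2-fold. Inhbb stood at -5.59 and 4.28 in the first pair of panels, and Inhba, Inhbb and Fst were past the rule in the last, at -1.74, -1.32 and -1.46.

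Genes with the most similar courses were taken as the 3 nearest by the distance between pairs of log2 folds (4 h vs 0 h and 12 h vs 4 h), among 8038 named genes that reached 10 FPKM in 1 or more of the 3 libraries. Nearest to Inha were Rnf145, Mkx and Ints6l, at distances of 0.06 to 0.10, with 236 genes within 0.5. Nearest to Inhba were Tm4sf1, Mapre2 and Tmsb15b2, at 0.21 to 0.37, with 5 genes within 0.5. Around Fst 33 genes lay within 0.5, the nearest being Ces2g, Insl3 and H3f3a. No gene lay within 0.5 of Inhbb: the nearest were Smim10l2a (distance 2.81), Mro (2.93) and Jakmip3 (2.95). Mro was at 267, 12.9 and 42.7 FPKM and Jakmip3 at 19.1, 1.39 and 14.9 FPKM at 0, 4 and 12 h. With 3 libraries such likeness is a description only.

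Of 49 other genes of activin, inhibin and related signalling (receptors, ligands, binding proteins, SMADs and their regulators, and convertases), 39 reached 1 FPKM in 1 or both libraries compared. Between 4 h and 0 h 11 were called higher and 2 lower, where 10.2% and 7.03% of all genes were, with a median log2 fold of 0.48 (all genes -0.01). Between 12 h and 4 h 0 were higher and 6 lower, where 4.83% and 7.88% of all genes were, with a median of -0.47 (all genes 0.01). Between 12 h and 0 h 4 were higher and 1 lower, where 3.16% and 2.55% of all genes were, with a median of 0.01 (all genes -0.02). After scaling to the mean FPKM sum the counts were 7 higher and 2 lower at 4 h against 0 h, with a median of 0.20 (all genes -0.29). On that scale 3 were higher and 3 lower at 12 h against 4 h, with a median of -0.09 (all genes 0.37).

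The proprotein convertases, which cut TGF-beta family precursors to their mature form, included the gene with the largest log2 fold of the list between 4 h and 0 h and between 12 h and 4 h. Pcsk5 was at 11.7 FPKM (10.3 to 13.2) at 0 h, 171.2 FPKM (165.5 to 176.9) at 4 h and 44.3 FPKM (41.8 to 46.9) at 12 h. It was past the rule in all 3 comparisons, with log2 folds of 3.76 (4 h vs 0 h), -1.93 (12 h vs 4 h) and 1.83 (12 h vs 0 h). Pcsk6 was at 5.63, 23.0 and 10.3 FPKM and Furin at 22.6, 62.0 and 30.6 FPKM at 0, 4 and 12 h. Pcsk7, at 7.82, 12.7 and 9.76 FPKM, passed in none. The 4 h calls of Pcsk5, Pcsk6 and Furin held under every scaling tried.

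Among receptors and co-receptors 5 of 11 were higher and 1 lower at 4 h against 0 h, where 10.2% and 7.03% of all genes were. After scaling to the mean FPKM sum or the mean protein-coding sum 4 were higher, and Tgfbr1 no longer passed. Tgfbr1, a type I receptor of TGF-beta, was at 56.8 FPKM (54.1 to 59.5) at 0 h, 125.2 FPKM (121.2 to 129.2) at 4 h and 69.7 FPKM (66.7 to 72.6) at 12 h. Acvr1, a type I receptor that binds activin and transduces BMP signals, was at 14.5, 40.2 and 20.9 FPKM, and Tgfbr2 at 3.804, 11.2 and 6.10 FPKM. Tdgf1, the co-receptor Cripto, was at 3.87, 13.4 and 9.26 FPKM. The endothelial co-receptor gene Eng was at 3.81, 11.0 (0 to 26.1) and 3.06 FPKM. The endothelial marker sum, given above, was likewise highest at 4 h, and its part in the Eng values was not tested. Bmpr1b, a type I receptor of BMPs, was lower at 4 h, at 33.8 FPKM against 92.4 FPKM at 0 h.

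The SMADs that carry the activin signal stayed within 2-fold in every comparison. Smad2 was at 10.7, 12.0 and 9.60 FPKM, Smad3 at 20.3, 21.8 and 20.1 FPKM and Smad4 at 44.0, 41.3 and 43.8 FPKM at 0, 4 and 12 h. The inhibitory SMADs were higher at 4 h than at 0 h, Smad6 at 8.17 against 2.90 FPKM and Smad7 at 15.0 against 6.02 FPKM. After scaling to the mean FPKM sum 0 of 8 SMADs passed the rule there, and after scaling to the mean protein-coding sum 1 did (Smad6). At 12 h Smad6 was at 10.2 FPKM and was called higher than at 0 h (log2 fold 1.52), which held under every scaling tried. Smad7, at 10.7 FPKM at 12 h, was within 2-fold of 0 h (0.74). Skil, a repressor of SMAD signalling, was at 14.3, 31.2 and 14.6 FPKM and passed at 4 h against 0 h and at 12 h against 4 h. Tgif1, a SMAD corepressor, was at 131.2, 261.8 and 122.3 FPKM and was lower at 12 h against 4 h (log2 fold -1.09). None of these Skil and Tgif1 calls held after scaling to the mean FPKM sum or the mean protein-coding sum.

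Of the binding proteins, Grem1, which binds BMPs, was lower at each later time, at 78.0 FPKM (71.9 to 84.1) at 0 h, 21.7 FPKM (17.1 to 26.2) at 4 h and 5.13 FPKM (3.48 to 6.77) at 12 h. Its log2 fold of -3.69 between 12 h and 0 h was the largest of the list in that comparison. Wfikkn1, which binds the ligands GDF8 and GDF11, was at 0.289, 1.19 and 1.58 FPKM and was higher at 12 h against 0 h by the rule, at its limit. The other beta subunit genes Inhbc and Inhbe stayed under 1 FPKM in all libraries. Gdf9 and Bmp15, ligands made by the oocyte, were at 53.6, 48.2 and 83.8 FPKM and at 22.4, 14.9 and 28.6 FPKM. The oocyte marker sum, given above, was likewise lowest at 4 h and highest at 12 h, as were 5 of its 6 markers, and both genes were higher at 12 h against 4 h after scaling to the mean FPKM sum. The part of oocytes in these values was not tested.

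**Figure D5:**
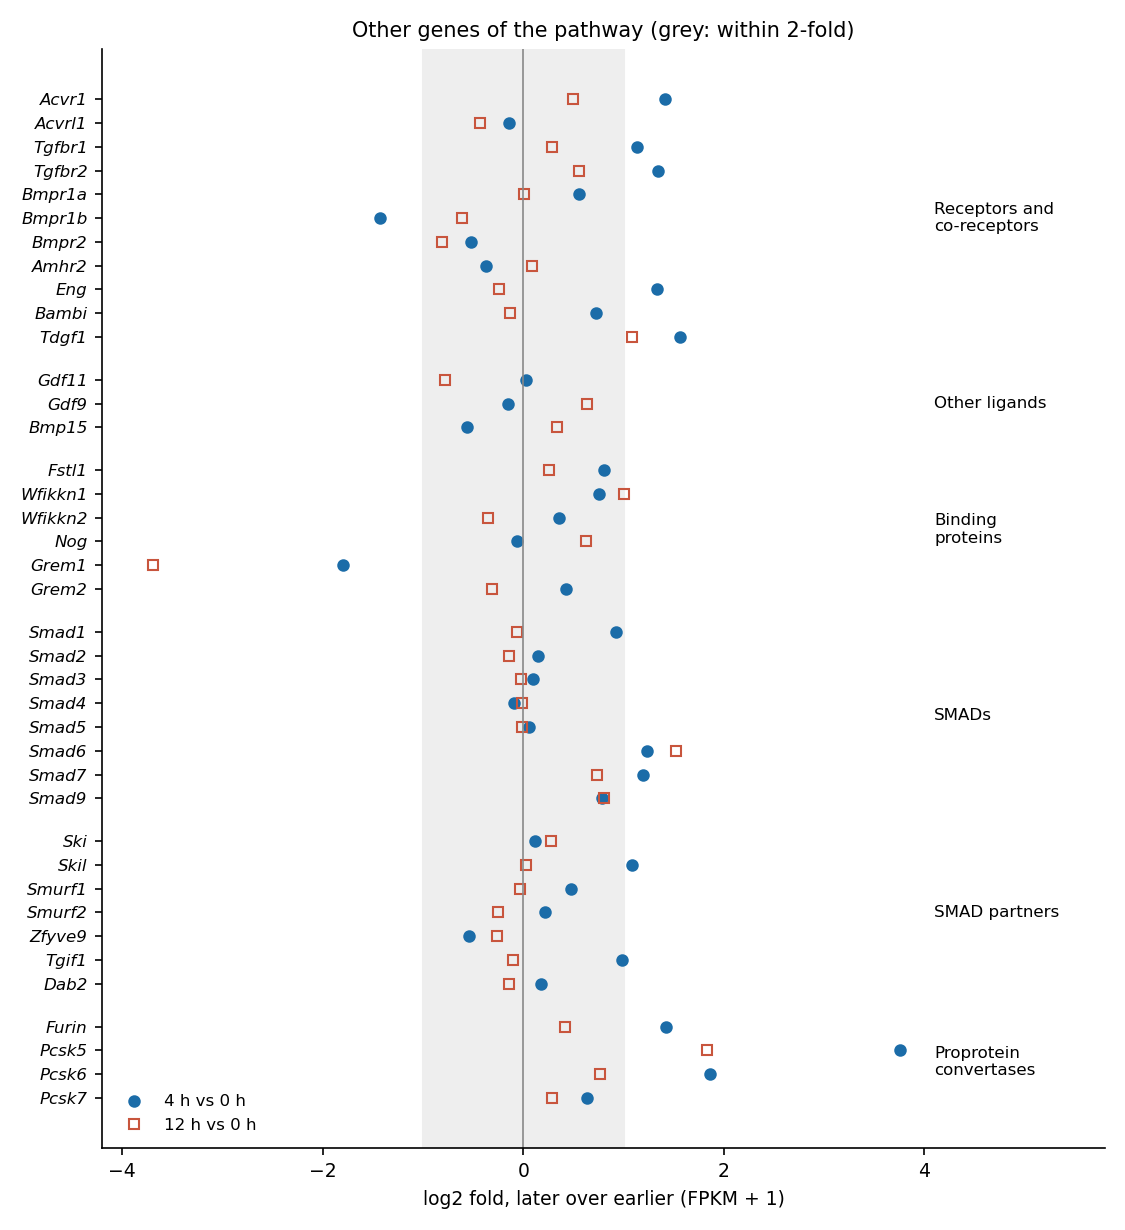
log2 folds (FPKM + 1, later over earlier) of 39 other pathway genes between 4 h and 0 h (filled circles) and between 12 h and 0 h (open squares), by role; grey marks less than 2-fold. Pcsk5 stood at 3.76 and 1.83 and Grem1 at -1.80 and -3.69, and most other genes lay within 2-fold at 12 h.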

How the data were processed

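Libraries were prepared from granulosa cell messenger RNA with an Illumina kit, per the labels' protocols. The submitters' processing notes name the mm10 build and the tools TopHat2 2.1.1, CASAVA 1.8 and Cufflinks 2.2.1, and neither strandedness nor pooling of the 3 mice is given in the sources used here. The authors deposited FPKM per RefSeq isoform with a standard deviation and bounds, which lie 2 standard deviations either side of the value (floored at 0) in all 103593 values that did not fail; 12 failed. Uncertain assignment of reads between isoforms widens these bounds.

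Of 34535 isoforms, 34169 matched a gene by RefSeq accession and 193 through GENCODE M21, and 173 matched none. Isoform FPKM was summed per gene, and bounds of sums take isoforms as independent. Folds use log2(FPKM + 1) with a minimum of 1 FPKM in 1 library. Ratio ranges set the lowest numerator bound over the highest denominator bound and the reverse. The fold calculation was tested on simulated data. Python 3.11.15, pandas 2.3.3, numpy 2.4.6 and matplotlib 3.10.9 were used. Depth was estimated from the spacing of low FPKM values; intervals cover the estimate within a library only.

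With 1 library per time, no p-value was computed. Members and gene lists were chosen with earlier results of these data known. All 9 genes are named, as are pathway genes past the 2-fold rule and the 3 genes nearest in course to Inha, Inhba, Inhbb and Fst; Smad2, Smad3, Smad4, Pcsk7, Inhbc, Inhbe, Gdf9 and Bmp15 lie outside that rule and were chosen after their values were seen. Alternatives were other pseudocounts, filters, scalings, fold limits and the most abundant isoform alone.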

Additional observations from a re-analysis of the deposited data

How the results depend on the processing

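The Inhbb calls between 4 h and 0 h and between 12 h and 4 h held under every alternative tried. Of the log2 folds of the 9 genes under the alternatives, 269 moved by less than their error and 28 moved by more. Of the ratios 52 and 8 did so. Filters, fold limits and a rule of bounds apart leave a log2 fold unchanged, and the most abundant isoform alone can change Fst only. Many of these values were therefore fixed in advance as unmoved, and the tally does not measure robustness. No called fold changed sign (0 reversed), but several calls were gained or lost. With a pseudocount of 0.1, 1 of the 9 genes was higher at 12 h than at 0 h, 12 pathway genes passed between 12 h and 4 h, and 1252 of all genes passed between 12 h and 0 h. With a pseudocount of 5, 0 of the 9 were higher at 4 h against 0 h, and 8, 3 and 2 pathway genes and 1126, 773 and 310 of all genes passed between 4 h and 0 h, 12 h and 4 h, and 12 h and 0 h, beside 13, 6 and 5 and 2287, 1682 and 743 as reported. After scaling to the mean FPKM sum, 0 were higher and 2 lower at 4 h against 0 h. On that scale 2 were higher at 12 h against 4 h and 1 was higher at 12 h against 0 h. All genes shifted there too, with median log2 folds of -0.29, 0.37 and 0.06 in these comparisons, beside -0.01, 0.01 and -0.02 as reported. Of all genes past the rule 36.7%, 70.6% and 62.7% were higher, beside 59.3%, 38.0% and 55.3% as reported. After scaling to the mean protein-coding sum, 0 of the 9 were higher at 4 h against 0 h. With the most abundant isoform alone, 2 were lower at 4 h than at 0 h. Fst over Inhba was then 0.665, 0.295 and 0.760 at 0, 4 and 12 h, Fst over the beta subunits 0.226, 0.285 and 0.211, and Fst over Fstl3 44.8 at 4 h. With 1 FPKM added, Fstl3 over the beta subunits was 0.00136 at 0 h, beside 0.000877. At a 1.5-fold limit, 2 of the 9 were higher and 2 lower at 4 h against 0 h, 2 higher and 3 lower at 12 h than at 4 h, and 1 higher at 12 h than at 0 h; 20, 19 and 13 pathway genes and 5006, 4261 and 2018 of all genes passed. At a 4-fold limit, 0 were higher at 4 h against 0 h and 0 lower at 12 h than at 4 h or at 0 h; 1, 0 and 1 pathway genes and 593, 397 and 172 of all genes passed. Limits of 1.5-fold and 4-fold move counts by construction, and so does the pseudocount, since a larger one shrinks every fold. For the other settings the cause was not tested.

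No paired analysis was possible because each time has 1 library, and leaving out a library was not run for the same reason. The spread between mice is unknown, and differences between times cannot be told apart from differences between libraries. Depth limits Fstl3 and Acvr2b, which rest on 42 to 108 fragments.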
